A study of Mus musculus with 4 samples.

Results

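The 32 genes described here encode the proteins that cut, polyadenylate, package and export nuclear mRNA. They are 32 of the 53715 genes in the table of counts. They were taken as named genes: 4 of the cleavage stimulation factor CstF, 8 of the cleavage and polyadenylation specificity factor CPSF and its partners, 3 of cleavage factor I (CFIm), 2 of cleavage factor II (CFIIm), 2 poly(A) polymerases, 3 poly(A)-binding proteins, 6 of the THO complex and 4 of the export machinery that THO loads. All 32 identifiers were found by symbol. Cstf2 and Thoc5 were put at the centre because of their levels in these same libraries, so every difference between the labels given for a member is a description, with no test.

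The study sequenced RNA of E12.5 mouse primordial germ cells, the precursors of oocytes and sperm, from C57BL/6 animals. There were 2 libraries labelled WT (wild type) and 2 labelled Rif1_KO (knock out of Rif1, a chromatin protein of DNA replication timing and DNA repair). Cells of both labels were collected by magnetic sorting (MACS), and 1000 cells went into each library, which was made by a modified Smart-seq2 protocol with Tn5 transposase. The marker used for the sort, the part of Rif1 that was deleted, the sex of the embryos and whether the 2 libraries of a label came from separate embryos are not given in the sources used here. Values within a label therefore measure the spread between libraries, which may be technical.

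Transcripts of nearly all protein-coding genes are cut downstream of a short signal, most often AATAAA in the DNA, and a poly(A) tail is then added. CPSF reads that signal and makes the cut, CstF binds GU-rich RNA just downstream of it, CFIm binds UGUA elements upstream, and CFIIm couples the cut to the end of transcription. The THO complex travels with RNA polymerase II and, with the helicase Ddx39b and the adaptor Alyref, forms TREX, which hands the finished mRNA to the export receptor pair Nxf1 and Nxt1.

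Rif1 itself went against the labels: it had 474 and 44 counts under the label WT (replicates 1 and 2, the order used throughout) and 1144 and 1207 under Rif1_KO. Every direction below follows the labels as deposited, and all of them would turn if the labels were exchanged, which was not tested. Total counts per library ranged from 11724630 to 14421298. The libraries differed in make-up. Haemoglobin genes took 11.8% and 8.92% of the counts under the WT label and 1.085% and 0.555% under Rif1_KO. Of the 13 erythroid markers in the table, 12 had non-overlapping ranges with the libraries labelled WT higher, where 18.4% of all tested genes did. Gata1 overlapped, at 0.366, 6.08, 1.57 and 3.31 CPM (each count as a rate per 1e+06 counts of the library's total after TMM scaling). Of 10 stromal markers, 9 had non-overlapping ranges the other way, where 21.0% of all tested genes did. Col6a1 overlapped, at 60.4, 6.08, 57.8 and 28.9 CPM. The stromal markers summed to 597 and 401 CPM under WT against 1670 and 1340 under Rif1_KO. The 12 germ cell markers summed to 36.4, 484, 43.1 and 34.2 CPM, so 1 library, WT replicate 2, stood above the other 3. Ddx4 had 7, 551, 14 and 10 counts, and Dazl had 141, 1821, 27 and 77. Some markers of the list did not follow that sum. Dnd1 (8.78, 5.76, 6.36 and 0.999 CPM) and Pou5f1 (1.19, 0.96, 0.299 and 0.578) were highest in WT replicate 1. Kit (0.823, 7.36, 11.4 and 2.84) and Mael (0.0914, 0.213, 0.449 and 0) were highest in Rif1_KO replicate 1. Prdm1 (0.274, 0.32, 0.898 and 17.6) was highest in Rif1_KO replicate 2, and the rest in WT replicate 2. Sox2 was at 0 in WT replicate 1 and Rif1_KO replicate 2, and Mael was at 0 in Rif1_KO replicate 2. Klf1 (erythroid) was at 0 in Rif1_KO replicate 2 and Lum (stromal) in WT replicate 2. Markers of supporting cells summed to 557, 541, 465 and 465 CPM, of endothelium to 196, 106, 71.0 and 135, and of leukocytes to 2.29, 18.7, 2.24 and 3.15. Cell make-up, library and label cannot be told apart here, the part of make-up in the values below was not tested, and in bulk RNA fewer cells of a type cannot be told apart from less RNA per cell.

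The largest contrasts among the members concerned Cstf2, Thoc5 and Thoc6, and the signal at the end of their transcripts is the sequence that CPSF reads. The GU-rich RNA that CstF binds lies downstream and is not in the bases printed here. The last 30 bases of a transcript of each, and of the CstF partners Cstf1 and Cstf3, were read from the GENCODE M21 transcripts (GRCm38, the same build as mm10), 5′ to 3′ on the transcript's strand. Capitals mark AATAAA, or ATTAAA where AATAAA is missing.
Cstf1: tctaaAATAAAttttttttatataacagtg
Cstf2: ctgtcgtggattcAATAAAtattttaaaag
Cstf3: aaaggAATAAAaggacctcaaaaacatgcc
Thoc5: ccagctaATTAAAatgtcatctgacaaatg
Thoc6: tgtcctgtcaaAATAAAattttaggctttt
These stretches lie at chr2:172382419-172382448 (plus strand, Cstf1), chrX:134086790-134086819 (plus, Cstf2), chr2:104665400-104665429 (plus, Cstf3), chr11:4928836-4928865 (plus, Thoc5) and chr17:23668618-23668647 (minus, Thoc6), each in the 3′ UTR. The hexamer ended 19, 11, 19, 17 and 13 bases before the annotated end in that order. The transcript of Cstf2t, the retroposed paralog of Cstf2, held neither hexamer in its last 30 bases. That end, at chr19:31087040-31087069, lies beyond the model of Cstf2t that was counted, which ends at chr19:31086590. Over the 32 members, 15 ends held AATAAA, 4 held ATTAAA without it, and 13 held neither. Among 21760 protein-coding genes read in the same way, on the transcript's strand only, the shares were 51.6%, 11.7% and 36.6%.

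Cstf2 encodes CstF-64, the RNA-binding subunit of CstF that contacts the downstream GU-rich element. The gene (ENSMUSG00000031256.11) lies on the plus strand of the X chromosome at chrX:134059187-134086819 in mm10. Under the WT label it had 8 and 17 counts, and under Rif1_KO it had 830 and 852. These were levels of 0.732 and 1.81 CPM against 62.1 and 44.8 CPM, with means of 1.27 ± 0.765 and 53.4 ± 12.2 (SD, n = 2 each). Both libraries labelled Rif1_KO were far above both labelled WT, and the replicates of each label were near each other beside that gap. The fitted log2 fold change, Rif1_KO minus WT, was 5.39 (SE 1.09). It ranged from 4.92 to 6.18 when each library was left out in turn. The ratio of pooled levels was 42.2, with a 95% exact counting interval of 28.5 to 65.3, which covers counting error only.

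The 3′ end of Cstf2 overlaps the 3′ end of Nox1, which encodes an NADPH oxidase and runs on the opposite strand. The 2 models share 399 exon bases, 4.35% of those of Cstf2 and 12.1% of those of Nox1, and the printed end of Cstf2 lies inside that stretch. The authors' counting did not use strand and let a fragment count for every gene it touched, per the file headers. Nox1 had 4, 14, 335 and 170 counts, so it was also higher under the Rif1_KO label, with a log2 fold change of 4.18. Even if every Nox1 fragment lay in the shared stretch, 4, 3, 495 and 682 fragments of Cstf2 would remain, at 0.366, 0.32, 37.0 and 35.9 CPM. The gap between the labels was therefore present in fragments that Nox1 does not share.

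Of the genes next to Cstf2, Tspan6, a tetraspanin, had 142, 251, 328 and 243 CPM and a log2 fold change of 0.54. On the same side, Sytl4 and Srpx2 had log2 fold changes of -1.02 and -1.86 with overlapping ranges. Beyond Nox1, the tRNA methyltransferase gene Trmt2b and Tmem35a had -1.45 and -1.30, with both libraries labelled Rif1_KO below both labelled WT. Apart from Nox1, no neighbour among these 6 had a fold change near that of Cstf2.

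Cstf2t encodes a CstF-64 protein from an intronless copy and is known for its role in male germ cells. It lies on chromosome 19 (ENSMUSG00000053536.6, chr19:31082841-31086590, plus strand). It had 181, 21, 1080 and 687 counts, or 16.6, 2.24, 80.8 and 36.1 CPM. The libraries labelled Rif1_KO were again both higher, but the libraries labelled WT differed 7.39-fold from each other. The log2 fold change was 2.63 (SE 1.13) and ran from 1.83 without WT replicate 2 to 4.75 without WT replicate 1. Because the copies are alike in sequence, reads could be placed on either. The files keep alignments of mapping quality 30 or more, per their headers, which leaves out fragments that match both equally well.

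Compared per kilobase of exon, Cstf2 stood below Cstf2t in every library. That order rests in part on the counted exon lengths, 9180 bases for Cstf2 and 3750 for Cstf2t. Not divided by length, Cstf2 was higher than Cstf2t in Rif1_KO replicate 2 (44.8 against 36.1 CPM) and lower in the other libraries. The ratios and sums given next use the same lengths. Cstf2 was at 0.0797, 0.198, 6.76 and 4.88 CPM per kilobase and Cstf2t at 4.41, 0.598, 21.5 and 9.63. The ratio of Cstf2 to Cstf2t was 0.0181, 0.331, 0.314 and 0.507, so WT replicate 2 fell beside the libraries labelled Rif1_KO and WT replicate 1 stood apart. Summed over both copies, the CstF-64 level was 4.49 and 0.795 CPM per kilobase under WT and 28.3 and 14.5 under Rif1_KO, with no overlap.

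The other CstF subunits did not follow Cstf2. Cstf3 encodes the scaffold subunit that binds Cstf2. It had 131, 436, 455 and 362 counts, or 12, 46.5, 34.0 and 19.0 CPM, with a log2 fold change of -0.14 (SE 0.99). Its lowest and highest libraries were both labelled WT. Cstf1, the WD-repeat subunit, had 10, 495, 4 and 162 counts, or 0.914, 52.8, 0.299 and 8.52 CPM. Here the replicates of each label disagreed, 57.8-fold under WT and 28.5-fold under Rif1_KO. The log2 fold change of -2.60 (SE 2.11) turned to 2.26 without WT replicate 2 and was -6.35 without Rif1_KO replicate 2.

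Shares within a complex do not depend on how libraries are scaled to each other. Of the summed CstF level per kilobase, Cstf2 made up 1.17% and 0.831% under WT and 19.8% and 24.2% under Rif1_KO. The share of Cstf2 was higher in both libraries labelled Rif1_KO, by 21.0 percentage points on average (36.1 when levels were not divided by length). Cstf2t made up 65%, 2.51%, 63% and 47.7%, and Cstf1 3.84%, 63.4%, 0.25% and 12%. Those shares followed the single library WT replicate 2 rather than the label. Cstf3 made up 30%, 33.3%, 16.9% and 16%, lower under Rif1_KO with no overlap. A share is relative to the other subunits, and the level of Cstf3 itself (2.04, 7.91, 5.79 and 3.24 CPM per kilobase) overlapped between the labels. The exact permutation test of 2 libraries against 2 cannot give a two-sided p below 0.333, so no share was tested.

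**Figure D1:**
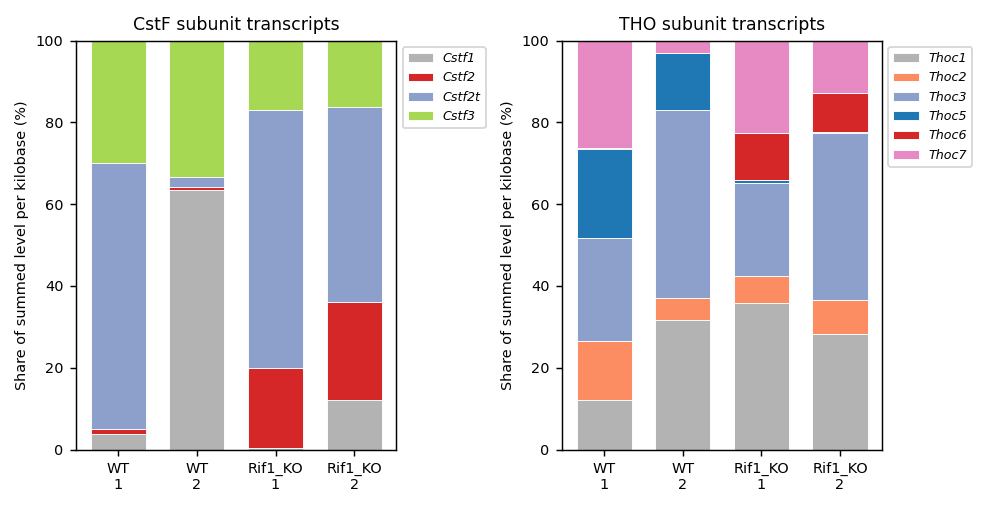
Stacked bars give the share of each subunit in the summed level of its complex (percent of CPM per kilobase, vertical axis, from 0 to 100) for CstF on the left and THO on the right, 1 bar for each library labelled WT or Rif1_KO. The Cstf2 segment is 1.17% and 0.831% under WT against 19.8% and 24.2% under Rif1_KO, and the Thoc5 segment is 21.8% and 13.9% against 0.558% and 0.227%.

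Among the 8 CPSF genes and partners, the ranges of the labels overlapped for 6, and Cpsf4 and Sympk were higher in both libraries labelled Rif1_KO. Of all tested genes, 21.0% were higher in that way and 18.4% lower. Cpsf4 encodes a zinc finger protein that, with Wdr33, reads the AATAAA signal. It had 3 and 7 counts under WT and 44 and 166 under Rif1_KO, or 0.274 and 0.747 against 3.29 and 8.73 CPM, with a log2 fold change of 3.54 (SE 1.43). The library WT replicate 1 sat at the counting floor of 3 counts, so the size of that fold is loosely held. It ran from 2.74 without Rif1_KO replicate 2 to 4.42 without WT replicate 2. The gene lies at chr5:145167213-145182041 on the plus strand (ENSMUSG00000029625.16).

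Wdr33, the other reader of the signal, had 91.0, 4.80, 79.3 and 61.1 CPM. A single library, WT replicate 2, was 19.0-fold below its own replicate, and the log2 fold change of 0.55 (SE 1.14) became 3.92 when WT replicate 1 was left out and -0.37 when WT replicate 2 was. Fip1l1, which tethers poly(A) polymerase to CPSF, had 42.4, 53.1, 37.1 and 51.3 CPM, with a log2 fold change of -0.11 (SE 0.62). All 4 libraries of Fip1l1 lay within a narrow band.

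Cpsf3 encodes the endonuclease that makes the cut. It had 102, 47.5, 37.1 and 75.2 CPM, the labels overlapped, and the log2 fold change was -0.41 (SE 0.64). Cpsf2, its catalytically inactive partner, had 33.3, 9.28, 18.8 and 23.3 CPM, with a log2 fold change of -0.01 (SE 1.06). The scaffold subunit Cpsf1 had 10.5, 4.05, 11.1 and 10.4 CPM, with 0.56 (SE 1.29). In both Cpsf1 and Cpsf2 the lowest library was WT replicate 2.

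Sympk encodes symplekin, a scaffold that joins CPSF to CstF. It had 2.19, 2.45, 3.37 and 2.94 CPM, with both libraries labelled Rif1_KO just above both labelled WT and a log2 fold change of 0.44 (SE 1.13). That gap, with 24, 23, 45 and 56 counts, was smaller than the fitted standard error. Rbbp6, an activator of the cleavage step, had 37.6, 47.3, 37.4 and 48.4 CPM, and its log2 fold change of 0.02 (SE 0.65) was the nearest to 0 of the CPSF group after that of Cpsf2.

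Nudt21 encodes the UGUA-binding subunit of CFIm, a complex that takes part in choosing between alternative cleavage sites. It had 72.2 and 25.7 CPM under WT and 106 and 100.3 under Rif1_KO, with means of 49.0 ± 32.9 and 103 ± 3.74 (SD, n = 2 each). Both libraries labelled Rif1_KO were higher and near each other. The log2 fold change was 1.07 (SE 0.62), from 0.52 without WT replicate 2 to 2.05 without WT replicate 1. Its larger partner Cpsf6 ran the other way, at 98.7, 70.4, 67.8 and 62.2 CPM and a log2 fold change of -0.38 (SE 0.49), with a gap between the labels of under 3 CPM at its narrowest. Cpsf7, the alternative large subunit, had 27.3, 16.1, 25.6 and 15.6 CPM, with a log2 fold change of -0.08 (SE 0.98).

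In CFIIm, Pcf11 binds the tail of RNA polymerase II, and it had 54.0, 54.8, 82.7 and 52.9 CPM with a log2 fold change of 0.32 (SE 0.54). Clp1, an RNA kinase that is also part of the tRNA splicing machinery, had 11.2, 28.8, 0.299 and 27.2 CPM. In Clp1 the library Rif1_KO replicate 1, with 4 counts, was 91.0-fold below the other library of its label, which had 518. Its log2 fold change of -0.54 (SE 1.76) was 0.55 without that library and -5.94 without Rif1_KO replicate 2.

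The poly(A) polymerases and poly(A)-binding proteins showed no separation of the labels. Papola, the main nuclear poly(A) polymerase, had 116, 239, 110 and 200.2 CPM, high in replicate 2 of both labels, and a log2 fold change of -0.20 (SE 0.50). Papolg, a related nuclear polymerase, had 0.823, 18.8, 8.53 and 13.5 CPM. Its single low library was WT replicate 1, with 9 counts, and the log2 fold change of 0.17 (SE 1.6) was 3.73 without WT replicate 2 and -0.72 without WT replicate 1.

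Pabpc1 encodes the main cytoplasmic poly(A)-binding protein and had 81.1, 64.4, 82.4 and 58.1 CPM per kilobase. By that measure it was the highest member in replicate 1 of both labels, while Thoc3 (79.8) was higher in WT replicate 2 and Nxt1 (83.4) in Rif1_KO replicate 2. It had 5803, 3950, 7206 and 7225 counts, or 531, 421, 539 and 380 CPM, with means of 476 ± 77.2 and 459 ± 113 (SD, n = 2 each) and a log2 fold change of -0.05 (SE 0.31). Its standard error was the smallest of the 32. Pabpc4, a second cytoplasmic protein of the family, had 22.3, 35.3, 43.4 and 15.4 CPM, with 0.03 (SE 0.91). Pabpn1, the nuclear protein that sets tail length, had 64.8, 34.0, 31.3 and 40.6 CPM, with -0.46 (SE 0.69). Of its exon bases, 21.4% lie also in the read-through model Gm20521 on the same strand, so part of its count is held by both. Over the 32 members, 14 shared exon bases with another model and 18 did not, and 2 shared over 10% of theirs (Pabpn1 and Thoc6).

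**Figure D2:**
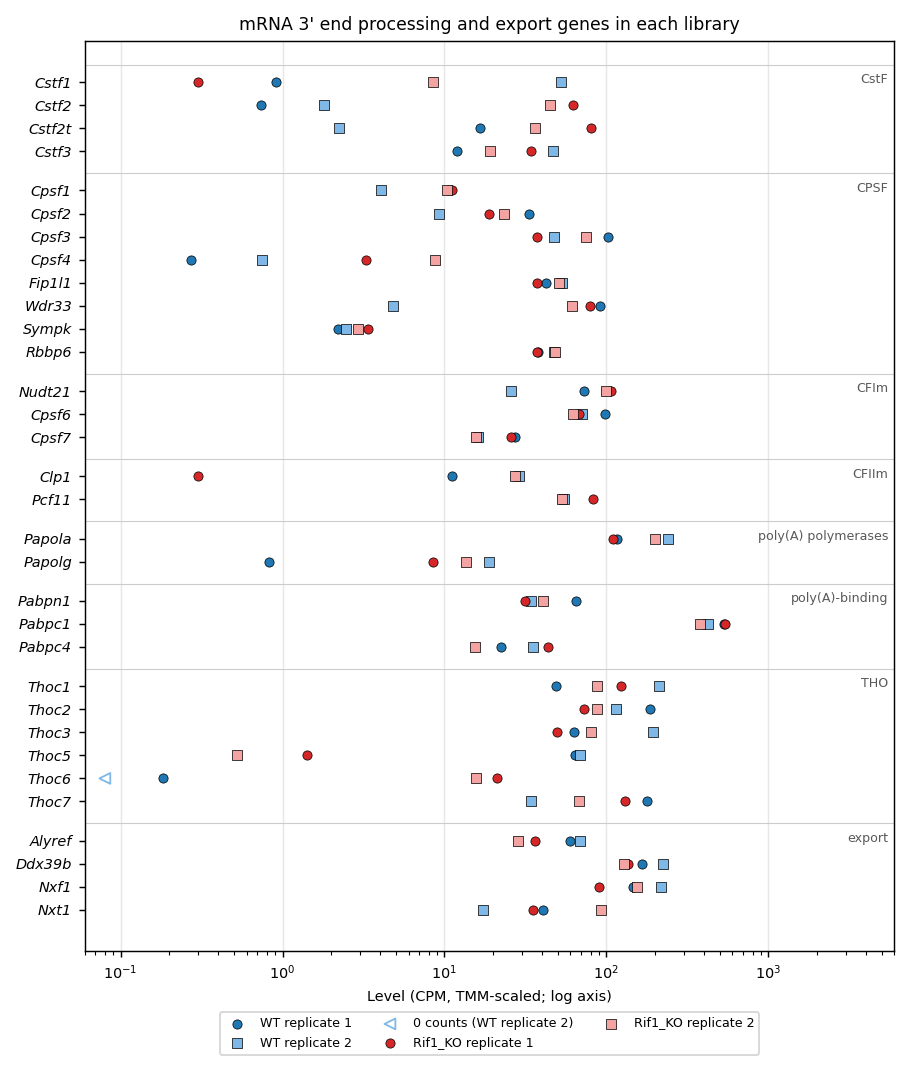
Level of each of the 32 members (rows, grouped by complex) in CPM on a log axis, with 1 point per library: blue for the label WT, red for Rif1_KO, circles for replicate 1, squares for replicate 2 and an open triangle at the left edge for 0 counts. Blue and red points lie far apart for Cstf2 (0.732 and 1.81 against 62.1 and 44.8 CPM), Thoc5 and Thoc6, and mix for 21 of the 32. Of all tested genes, 21.0% had both Rif1_KO libraries higher and 18.4% had both lower.

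THO held the largest contrasts in both directions. Thoc5, a subunit of the THO core, had 704 and 642 counts under WT and 19 and 10 under Rif1_KO. These were 64.4 and 68.5 CPM against 1.42 and 0.526 CPM, with means of 66.4 ± 2.92 and 0.973 ± 0.633 (SD, n = 2 each). The libraries labelled WT were near equal and both were far above the libraries labelled Rif1_KO. The log2 fold change was -6.09 (SE 1.02), from -6.87 to -5.48 over the fits that each left out 1 library. The pooled level was 74.1-fold higher under WT, with a 95% exact counting interval of 51.3 to 111, which covers counting error only. The gene (ENSMUSG00000034274.11) lies at chr11:4895320-4928867 on the plus strand and shares no exon bases with another model of the table.

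Thoc6, a WD-repeat subunit, ran the other way. It had 2 and 0 counts under WT and 282 and 296 under Rif1_KO, or 0.183 and 0 CPM against 21.1 and 15.6 CPM. Both libraries labelled WT were under the floor of 3 counts, which corresponds to 0.274 and 0.32 CPM in them. The log2 fold change of 7.46 (SE 1.94) rests on the prior count of the fit and ranged from 6.59 to 11.01 with each library left out. The ratio of pooled levels was 181, with a counting interval of 49.9 to 1500, which covers counting error only. The gene (ENSMUSG00000041319.13) lies at chr17:23668614-23673882 on the minus strand.

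Of the exon bases of Thoc6, 14.2% (287 bases) also lie in Hcfc1r1, which starts beside it on the opposite strand. Hcfc1r1 had 51.4, 76.0, 64.2 and 74.2 CPM, high in every library. Fragments on the shared bases count for both genes, so at most 2 and 0 fragments of the libraries labelled WT lay there. Under Rif1_KO, Hcfc1r1 had 859 and 1412 counts, more than the 282 and 296 of Thoc6. The counts therefore do not show how many Thoc6 fragments of those libraries lay outside the shared bases.

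The neighbours of Thoc5 showed no gap of its size. Its 6 tested neighbours, 3 on each side, had log2 fold changes from -1.56 (Gas2l1) to 0.70 (Nipsnap1). Of these, the calcium-binding protein gene Cabp7, at 32.5, 37.1, 24.5 and 21.4 CPM, had non-overlapping ranges. Beside Thoc6, whose neighbours were looked at after its values were seen, the zinc finger genes Zfp13 and Zscan10 were also higher in both libraries labelled Rif1_KO. Zfp13 had 0.823, 0.32, 5.01 and 6.31 CPM, and Zscan10 had 0, 0.32, 2.92 and 2.37. Mmp25 and 1520401A03Rik were lower in both, with log2 fold changes of -1.86 and -1.24, and the ranges of Hcfc1r1 and Cldn6 overlapped.

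**Figure D3:**
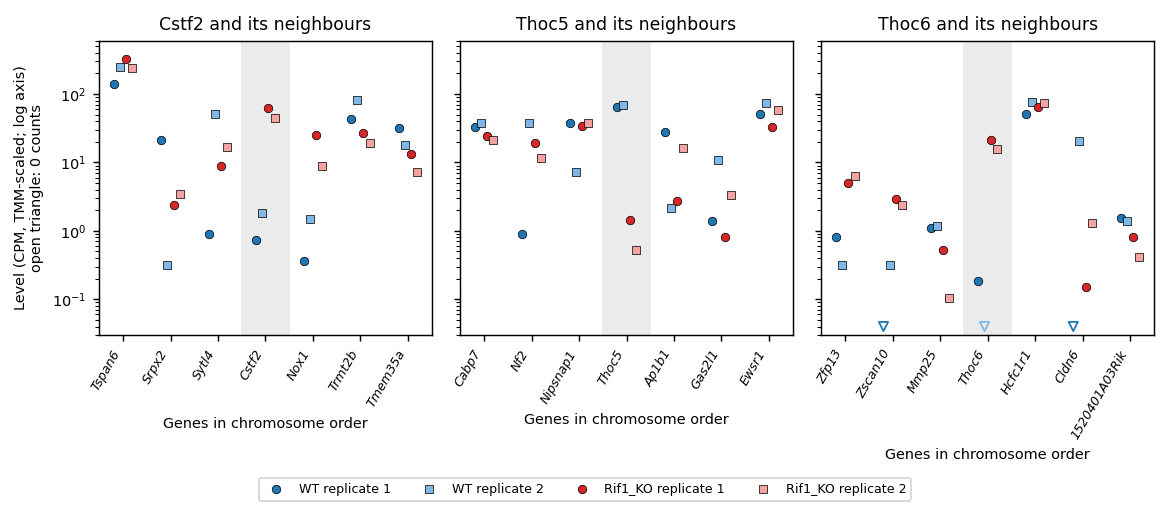
Level (CPM, log axis) of Cstf2, Thoc5 and Thoc6 (shaded) and of the 3 tested genes on each side in chromosome order, 1 point per library, blue for WT and red for Rif1_KO, with open triangles for 0 counts. The gap at Thoc5 (64.4 and 68.5 against 1.42 and 0.526 CPM) is matched by none of its 6 neighbours, while the overlapping gene Nox1 is split the same way as Cstf2.

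The remaining THO subunits had smaller contrasts. Thoc2, the large scaffold, had 187, 115, 72.6 and 86.9 CPM, with means of 151 ± 50.8 and 79.7 ± 10.1 (SD, n = 2 each) and a log2 fold change of -0.92 (SE 0.43). Both libraries labelled Rif1_KO were below both labelled WT, and the sign held under every alternative, from -1.22 to -0.48 with each library left out. Thoc3, the other WD-repeat subunit, had 63.3, 194, 49.4 and 80.2 CPM, with -0.99 (SE 0.63) and overlapping ranges.

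Thoc1, a core subunit, had 48.5, 211, 123 and 88.0 CPM and a log2 fold change of -0.30 (SE 0.68). Its lowest and highest libraries were both labelled WT, 4.35-fold apart. Thoc7, a small coiled-coil subunit that pairs with Thoc5 in the complex, had 178, 34.0, 131 and 68.1 CPM, with -0.09 (SE 0.78). The libraries labelled WT differed 5.22-fold for Thoc7, and it did not share the low level of Thoc5 under the Rif1_KO label.

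Within the summed THO level per kilobase, Thoc5 made up 21.8% and 13.9% under WT and 0.558% and 0.227% under Rif1_KO, a difference of -17.4 percentage points (-11.2 when levels were not divided by length). Thoc6 made up 0.0876% and 0% against 11.7% and 9.49%. Thoc1 had 12.2%, 31.7%, 35.9% and 28.2%, Thoc2 14.3%, 5.27%, 6.45% and 8.47%, Thoc3 25.3%, 46.2%, 22.9% and 40.8%, and Thoc7 26.3%, 3%, 22.5% and 12.8%. For these 4 the labels overlapped. The make-up of the counted THO transcripts thus differed between the labels at Thoc5 and Thoc6, in opposite directions. The counts of Thoc6 may hold fragments of Hcfc1r1.

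Of the factors that act after THO, Alyref, the adaptor that passes mRNA to the export receptor, had 59.7 and 68.4 CPM under WT and 36.1 and 28.6 under Rif1_KO. The means were 64.1 ± 6.14 and 32.4 ± 5.32 (SD, n = 2 each), with no overlap, and the log2 fold change was -0.98 (SE 0.60), from -1.08 to -0.77 with each library left out. Ddx39b, the helicase of TREX, had 165, 225, 135 and 128 CPM, with means of 195 ± 42.8 and 131 ± 5.14 (SD, n = 2 each) and a log2 fold change of -0.57 (SE 0.36). For both genes the libraries labelled WT were higher.

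Nxf1, the export receptor, had 146, 216, 90.6 and 155 CPM, with -0.56 (SE 0.43) and ranges that overlapped. Its fold change stayed below 0 under every alternative. Its partner Nxt1 had 40.8, 17.3, 35.0 and 93.1 CPM, with 1.14 (SE 0.79). That value came mainly from Rif1_KO replicate 2, and it was 0.31 without it.

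**Figure D4:**
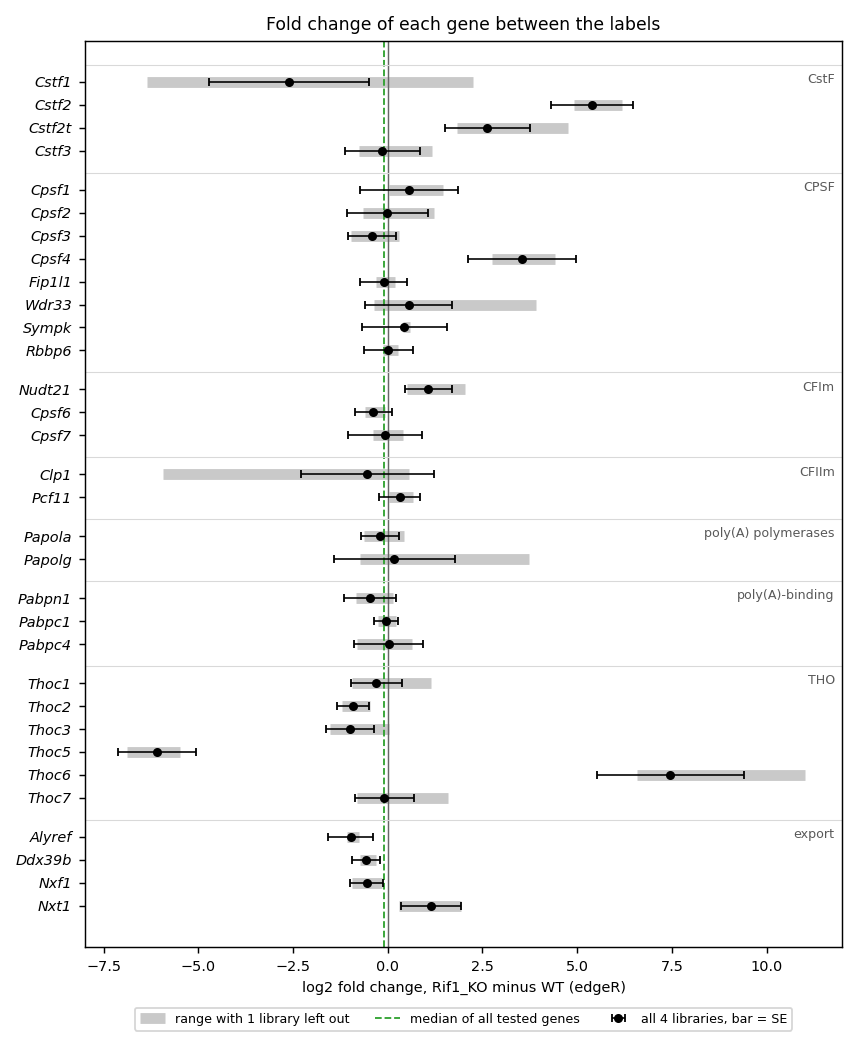
Fitted log2 fold change (Rif1_KO minus WT, horizontal axis) of the 32 members, grouped by complex: black points with bars of 1 SE use all 4 libraries, grey bands span the fits that each leave out 1 library, and the dashed line is the median of all tested genes (-0.11). Cstf2 (5.39), Thoc6 (7.46) and Thoc5 (-6.09) lie farthest from 0, and wide grey bands cross 0 for Cstf1, Clp1, Wdr33 and Papolg.

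By group, the median log2 fold change was 1.25 in CstF (2 members above 0 and 2 below) and 0.23 in CPSF (5 and 3). It was -0.08 in CFIm (1 and 2), -0.11 in CFIIm (1 and 1), -0.01 in the poly(A) polymerases (1 and 1) and -0.05 in the poly(A)-binding proteins (1 and 2). It was -0.61 in THO (1 and 5) and -0.57 in the export group (1 and 3). Summed levels overlapped between the labels in most groups. The 4 CstF genes summed to 30.2 and 103 CPM against 177 and 108, and the 6 THO genes to 541 and 622 against 399 and 339, and only in these and in the 4 export genes (412 and 527 against 297 and 404) did the ranges not overlap. Without Cstf2, which chose the list, CstF summed to 29.5 and 102 against 115 and 63.7 CPM, and the ranges overlapped. Without Thoc5, THO summed to 477 and 554 against 397 and 339 CPM, with no overlap.

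Over all 32 members the median log2 fold change was -0.08, against -0.11 over the 15466 genes tested. All 32 passed the filter on low counts (edgeR's filterByExpr at a minimum count of 10), but Cpsf4 and Thoc6 passed only through the libraries labelled Rif1_KO, having under 10 counts in both labelled WT. Without Cstf2, Thoc5 and Thoc6 the median was -0.09. Fold changes were above 0 for 13 members and below 0 for 19, and 46.1% of the tested genes were above 0. These signs moved with the scaling: 20 members were above 0 with upper-quartile factors and 11 with RLE factors, while the median of all genes moved from -0.11 to 0.16 and -0.19.

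In edgeR's quasi-likelihood test with Benjamini-Hochberg adjustment over all genes, 0 members had an adjusted p under 0.05, where 0.0129% of the tested genes (2) did. Those 2, Hba-a1 and Hba-a2, are haemoglobin genes of the erythroid list, lower under Rif1_KO. By limma-voom there were also 0 members and 2 genes in all. At an unadjusted p under 0.05, Cstf2, Cpsf4 and Thoc6 were higher, 3 of 32 where 5.35% of tested genes were, and Thoc5 was lower, 1 of 32 where 3.05% were, which made 4 of 32 where 8.41% passed in either direction. Over all tested genes those were 828 higher and 472 lower. With upper-quartile factors they were 1055 and 295. DESeq2 called Cstf2, Thoc5 and Thoc6, 3 of 32 where it called 3.37% of genes: 2 higher where 2.13% were and 1 lower where 1.24% were. Without WT replicate 1, edgeR called 8 members (Cstf1, Cstf2, Cstf2t, Nudt21, Thoc3, Thoc5, Thoc6 and Wdr33) where it called 7.17% of genes (1345 of 18746). Without WT replicate 2 it called 3 (Cstf2, Thoc5 and Thoc6) where it called 4.76% (890 of 18687). The members were chosen on this contrast, and these counts are given as a description.

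Ranges did not overlap, with Rif1_KO higher, for 6 members (Cpsf4, Cstf2, Cstf2t, Nudt21, Sympk and Thoc6) where 21.0% of tested genes were so, and with WT higher for 5 (Alyref, Cpsf6, Ddx39b, Thoc2 and Thoc5) where 18.4% were. The other 21 overlapped. Log2 fold changes of 4 or more in size were found for 3 members, where 4.34% of tested genes had one. Replicates under the WT label were at least 4-fold apart for 6 members (Cstf1, Cstf2t, Papolg, Thoc1, Thoc7 and Wdr33), where 34.2% of tested genes were, and under Rif1_KO for 2 (Clp1 and Cstf1), where 18.4% were. The median of the mean levels was 44.3 CPM over the members and 10.2 over all tested genes, not divided by length. As a set, the members took 0.197% and 0.189% of all counts under WT and 0.234% and 0.269% under Rif1_KO. These are shares of unscaled totals. Haemoglobin genes took 11.8%, 8.92%, 1.085% and 0.555% of those totals. Models of the rRNA region took 15.8%, 17.6%, 3.87% and 7.15%, so both were larger under WT. Their part in the difference of the set's share was not tested.

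**Figure D5:**
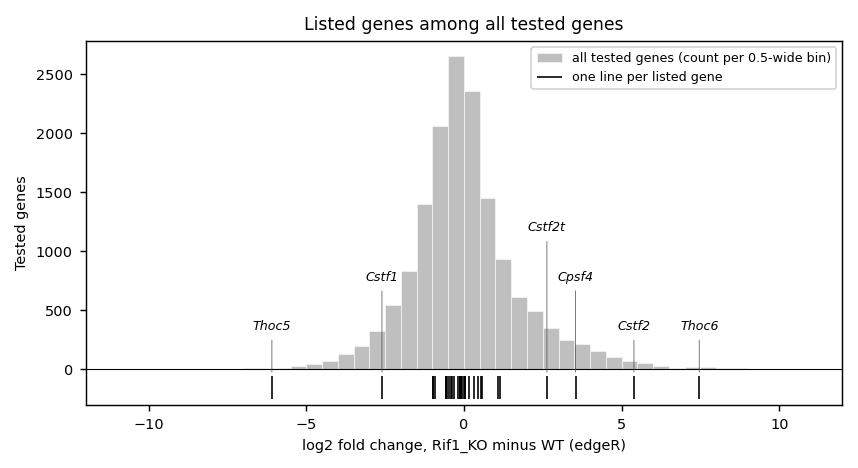
Histogram of the fitted log2 fold change (Rif1_KO minus WT, horizontal axis) of the 15466 tested genes (number per bin, vertical axis), with 1 black line below the axis for each of the 32 members. Of the members, 24 lie within 1 of 0, where 55.1% of tested genes do, and Thoc5 (-6.09), Cstf2 (5.39) and Thoc6 (7.46) lie in the tails.

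The rest of the pathway was read from 6 lists of other genes. edgeR called 0 of their genes at an adjusted p under 0.05, 3 of the 68 tested (4.41%) had an unadjusted p under 0.05 beside 8.41% of all tested genes, and DESeq2 called 2 (2.94%) beside 3.37%. Ranges did not overlap for 20 of the 68 with Rif1_KO higher, beside 21.0% of all tested genes. With WT higher they did not overlap for 8, beside 18.4%. The list medians of the log2 fold change ran from -0.16 to 0.79, beside -0.11 over all tested genes. Among the 6 tested genes of histone mRNA 3′ end formation, none was called by DESeq2 either. Lsm10, a subunit of the U7 particle that cuts histone mRNA, had 48.0, 52.5, 135 and 74.3 CPM and a log2 fold change of 1.05 (SE 0.52). Lsm11, its partner, was low, at 0.457, 0.854, 3.44 and 2.84 CPM, with 2.25 (SE 1.09). Snrpb, shared with the spliceosome, had 203, 200.1, 125 and 125 CPM, with -0.69 (SE 0.34).

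Among 12 termination factors and partners of the polymerase tail, 0 passed at an unadjusted p under 0.05. Scaf8, which binds that tail and guards against early polyadenylation, had 54.9, 19.6, 8.30 and 6.94 CPM, with -2.29 (SE 1.05). Its paralog Scaf4 had 0.914, 0.32, 2.17 and 2.16 CPM, with 1.78 (SE 1.03). Rprd1a, another tail-binding protein, had 1.92, 0.32, 14.3 and 11.4 CPM, with 3.5 (SE 1.55). Of the 12, ranges did not overlap for 3 with Rif1_KO higher and 2 with WT higher, where 21.0% and 18.4% of all tested genes were so.

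The 14 tested genes of Integrator, the complex that cuts small nuclear RNAs, had a median of -0.16, and 0 passed at an unadjusted p under 0.05. Ints14 had 53.5, 92.6, 24.9 and 28.0 CPM, with -1.46 (SE 0.63), and Ints8 had 29.1, 34.7, 107 and 51.3 CPM, with 1.31 (SE 0.62). Ints3 was high in 1 library, WT replicate 1, at 84.9, 2.77, 6.73 and 4.52 CPM, with -2.96 (SE 1.55). The TREX-2 and nuclear pore list (14 tested) held 1 gene higher at an unadjusted p under 0.05, Nup98, a pore protein, at 111, 71.8, 308 and 136 CPM and 1.28 (SE 0.50). Eny2, a TREX-2 subunit, had 146, 141, 242 and 167 CPM, with 0.51 (SE 0.36), and the centrin gene Cetn3 had 182, 255, 429 and 219 CPM, with 0.57 (SE 0.41). DESeq2 called none of either list.

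Of 13 tested genes among further TREX and export factors, 0 passed at an unadjusted p under 0.05. Poldip3, a TREX-associated adaptor, had 1.55, 3.63, 12.3 and 26.1 CPM, with 2.89 (SE 1.37), and Ncbp3, a cap-binding protein, had 27.1, 57.7, 19.5 and 15.0 CPM, with -1.29 (SE 0.86). Nxf2, a paralog of Nxf1, was low, at 0.183, 1.71, 0.748 and 14.1 CPM, with 2.98 (SE 1.89). In the list of other terminal nucleotidyltransferases and poly(A)-binding proteins (9 tested), 1 gene passed upwards and 1 downwards at an unadjusted p under 0.05, both of the Tent5 family of cytoplasmic poly(A) polymerases. Tent5a had 0.457, 0.64, 8.45 and 35.5 CPM, with 5.30 (SE 1.59), and an adjusted p of 0.571 by edgeR and 0.00135 by DESeq2. Tent5c had 98.9, 89.3, 2.77 and 13.8 CPM, with -3.5 (SE 0.90), and an adjusted p of 0.571 by edgeR and 0.0194 by DESeq2. Tut4, a terminal uridylyltransferase, had 27.2, 23.7, 55.6 and 58.4 CPM, with 1.16 (SE 0.66), and both libraries labelled Rif1_KO were higher. The lower level of Tent5c under the Rif1_KO label stood beside the lower haemoglobin counts of those libraries, and the part of erythroid cells in it was not tested.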

How the data were processed

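RNA from 2 libraries labelled WT and 2 labelled Rif1_KO was analysed from 1 deposited table of counts per gene. The authors made these counts with featureCounts 1.6.2 on GENCODE M17 (mm10), keeping alignments of mapping quality 30 or more, without strand and with a fragment counted for every gene it overlapped, per the file headers. Trim Galore, FastQC, HISAT2 and SAMtools are named in the submitters' processing notes. The members and lists were chosen with earlier results of these data known.

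Groups came from the labels. Genes were filtered with filterByExpr (minimum count 10), scaled by TMM, and fitted over all genes with edgeR 4.0.16 (robust quasi-likelihood) in R 4.3.3. CPM used each library's full total times its TMM factor, and CPM per kilobase used the deposited exon length. limma 3.58.1 and DESeq2 1.42.0 were alternatives, beside RLE and upper-quartile factors, totals without haemoglobin, ribosomal and mitochondrial counts, other filters, a replicate block and each library left out. The common biological coefficient of variation was 0.842. Replicate counts differed by more than sampling noise (chi-square per degree of freedom 50.8 for WT and 43.6 for Rif1_KO). Total counts were 12768932 and 11724630 (WT) and 12071903 and 14421298 (Rif1_KO). Every member was named. The other pathway genes named were up to 3 per list, those with the smallest unadjusted p, and the genes next to Cstf2 and Thoc5 were the 3 tested on each side. The neighbours of Thoc6 were chosen after its values were seen.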

Additional observations from a re-analysis of the deposited data

How the results depend on the processing

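edgeR called 2 genes in all; it called 0 with upper-quartile factors, 54 with no filter on low counts (45215 genes tested), 0 at a minimum of 50 counts in 2 libraries, 7 with the replicate block, 521 by DESeq2, and 5 to 1345 with each library left out. Members called numbered 0; there were 2 with no filter (Cstf2 and Thoc5; 0.119% of genes called), 3 by DESeq2 (3.37%), 0 with the replicate block (0.0453%), and 0 to 8 with each library left out (0.0280% to 7.17%). The replicate numbers share only a number (r = -0.0252 between the deviations). The Cstf2 share difference of 21.0 percentage points was 36.1 when not divided by length and 18.8 to 23.2 with each library left out, and the log2 ratio of Cstf2 to the other CstF genes differed by 5.06. The Thoc5 difference of -17.4 was -11.2 not divided by length and -21.4 to -13.5 with each library left out, and its log2 ratio differed by -7.41. Of the 32 fold changes, 15 kept 1 sign over those of the 12 alternatives in which they were fitted, and 17 did not. Cpsf4 and Sympk, 2 of those 15, were not fitted at a minimum of 50 counts in 2 libraries. With a library left out, the lone library of a label is assumed to vary like the other pair. Counts under 10 (Cpsf4 and Thoc6 under WT) limit how precisely their folds are known.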
